A study of Arabidopsis thaliana with 6 samples.

Results

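The regions described here are the places on the chromosome arms of Arabidopsis thaliana where chromatin captured with probes against HID1, a noncoding RNA, gave a peak with both cross-linkers. There were 316 such pairs of peaks, of 488 overlapping pairs in the series, and the other 172 lay around the centromeres. A pair was selected on the peak calls themselves. It joins a peak of the formaldehyde list and a peak of the glutaraldehyde list that overlap by 1 bp or more, with both midpoints outside the pericentromeric intervals of the 5 chromosomes. In TAIR10 coordinates these were set to run from 11500000 to 17700000 on chromosome 1, from 1100000 to 7200000 on chromosome 2, from 10300000 to 17300000 on chromosome 3, from 1500000 to 6300000 on chromosome 4 and from 9000000 to 16000000 on chromosome 5. The overlap, the scores and the positions of the pairs are therefore descriptions, and no test was made on them.

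All seeds were of the Col-0 ecotype and received 5 min of red light, which activates the photoreceptor phytochrome B (the phyB-on condition), and then 48 h of darkness. Chromatin from 0.3 g of seeds was fixed for 20 min with 1% formaldehyde, whose cross-links can be reversed, in one library, and with 1% glutaraldehyde, whose cross-links cannot, in the other. Both were captured with biotinylated antisense probes along the whole of HID1. The other 4 of the 6 libraries, mock captures with unlabelled probes and inputs, were not analysed here. Since a cross-linker was used in 1 probe library each, cross-linker and library cannot be told apart, and no value has a replicate check within a cross-linker.

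Chromatin isolation by RNA purification (ChIRP) pulls down an RNA with complementary probes and sequences the DNA that was cross-linked to it, directly or through proteins. Long noncoding RNAs can sit on chromatin at their own gene or far from it, and HID1 is known in seedlings for its action in the light response, at the gene of the transcription factor PIF3. In seeds phytochrome B promotes germination, which abscisic acid (ABA) restrains and gibberellin favours. The genes under the pairs were read with these hormone and light pathways in mind.

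On the arms 311 of 2964 formaldehyde peaks (10.5%) and 313 of 5218 glutaraldehyde peaks (6.0%) took part in a pair. Glutaraldehyde peaks covered 3.71 Mb, or 4.22% of the arms, and 155 of the 2964 formaldehyde midpoints lay inside them, which is 5.23% (95% exact binomial interval 4.46 to 6.09). In the other direction formaldehyde peaks covered 2.69 Mb, or 3.06% of the arms, and held 193 of 5218 glutaraldehyde midpoints, 3.7% (3.2 to 4.25). The shares of midpoints thus stood a little above the shares of sequence covered, and most pairs must be read with that small margin in view. By midpoint, 81.5% of formaldehyde and 66.2% of glutaraldehyde arm peaks lay in coding gene bodies, against 65.6% of arm sequence. How much of the margin this accounts for was not tested. The intervals cover counting error only.

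Chromosome 1 held 75 pairs, chromosome 2 held 53, chromosome 3 held 61, chromosome 4 held 52 and chromosome 5 held 75. Per megabase of arm this came to 3.1 on chromosome 1 and to between 3.71 and 3.9 on the other chromosomes.

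The pair with the best rank of all arm pairs in both lists lay at the HID1 locus itself, on chromosome 2 from 15029487 to 15030648. The score of a peak is the authors' deposited value, which rises as the peak caller's p-value falls and which ranks peaks only within a list. Here it was 348 with formaldehyde, rank 23 of 4557, and 2149.6 with glutaraldehyde, rank 1 of 6306. The formaldehyde peak lay wholly inside the overlap, as did 56.4% of the glutaraldehyde peak. The interval touched AT2G35747, taken as HID1 from prior knowledge, and the protein-coding gene AT2G35750. It also touched AT2G35744, AT2G08765 and AT2G08770, which the gene table lists, like AT2G35747, as small nucleolar RNAs. The probes are complementary to the RNA of this locus, and whether its DNA was captured through the RNA or by the probes themselves was not tested.

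A pair lay on either side of HID1. One lay 18.6 kb to the left by its formaldehyde midpoint, in PGSIP7, a gene of the glycogenin-like starch initiation family, with scores of 212 with formaldehyde and 118 with glutaraldehyde. The other lay 11.9 kb to the right, across AT2G35790 and AT2G35795, with scores of 109 and 99.2, ranks 1034 and 1473. Within 20 kb on each side of HID1 there were thus 3 pairs, made of all 3 formaldehyde peaks and of 3 of the 4 glutaraldehyde peaks there. The remaining glutaraldehyde peak, with a score of 277, stood next to the HID1 peak at 2.14 kb from the centre.

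**Figure D1:**
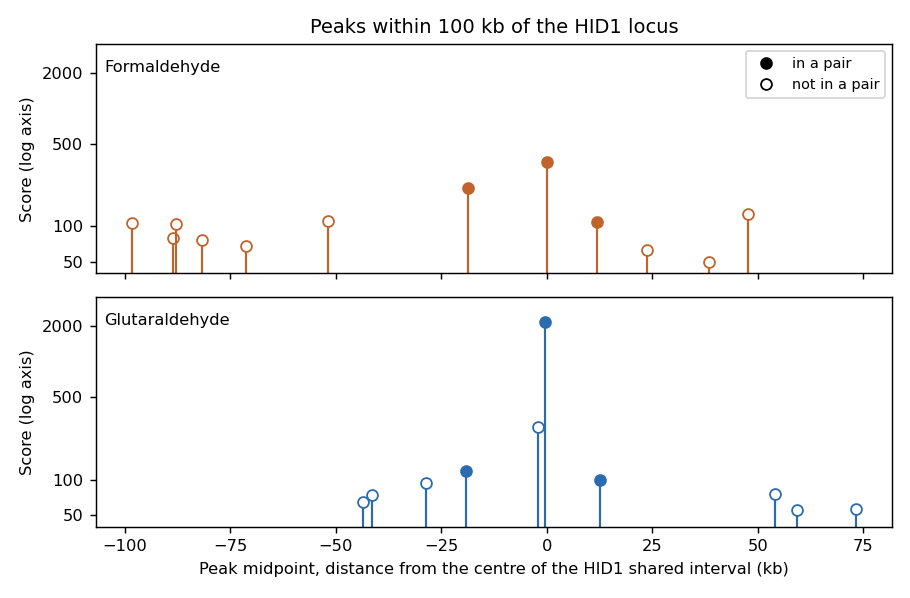
Scores of all peaks within 100 kb of the centre of the HID1 shared interval (vertical axes, log scale) against the distance of the peak midpoint from that centre in kb, with formaldehyde above and glutaraldehyde below. Filled points belong to a pair. The 3 pairs lie within 20 kb of the centre, and the glutaraldehyde score at HID1, 2149.6, stands far above its neighbours.

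From 20 kb out to 100 kb no further pair was found, although formaldehyde had 12 peaks and glutaraldehyde 10 within 100 kb. Groups of 3 pairs also occurred elsewhere, here counted within 50 kb. In all, 24 of the 316 pairs, the 3 at HID1 among them, had at least 3 pairs within 50 kb, themselves included. The largest number was 4, around the malate dehydrogenase gene c-NAD-MDH3 on chromosome 5, and 195 pairs had no other pair that close. With pairs joined at gaps of up to 20 kb, groups of 3 also lay at KT1 and at AT1G72250 with AT1G72270. Each of these was made of 2 formaldehyde and 3 glutaraldehyde peaks, against 3 and 3 at HID1. These comparisons were chosen after the neighbours had been seen.

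The pair in second place, on chromosome 2 from 9471 to 10595, had scores of 301 and 325, ranks 38 and 11, and overlapped over 89.9% of the formaldehyde and 98.7% of the glutaraldehyde peak. It touched the protein-coding gene AT2G01023, the noncoding entry AT2G00340 and the pseudogene AT2G01022, near the end of the chromosome. The 2 ribosomal RNA entries that the gene table gives for the arms, AT2G01010 and AT2G01020, lay next to it, the nearer at 3525 bp. Ribosomal RNA genes are repeated many times in the genome, and the sources used here do not say how reads that map to several places were treated. Their part in this pair was not tested.

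Apart from HID1 and this pair, 4 had a score above 150 in both libraries. AT1G18830, which carries the synonym SEC31A, a name of the coat of vesicles that leave the endoplasmic reticulum, had scores of 209 with formaldehyde and 296 with glutaraldehyde over 854 bp. TAFII15, also called TAF10 and SALT TOLERANCE DURING GERMINATION 1, encodes a subunit of the general transcription factor TFIID and had scores of 185 and 183. Its shared interval, on chromosome 4 from 15353355 to 15354051, also touched AT4G31715. FRK1, a receptor-like kinase gene induced by the bacterial peptide flg22, had scores of 213 and 154, and RKF2, another receptor-like kinase gene, had 150.4 and 163. The list of best pairs went on with AT1G15320 (147 and 170.4) and with CESA9, which encodes a cellulose synthase and had scores of 252 and 143 over 288 bp.

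**Figure D2:**
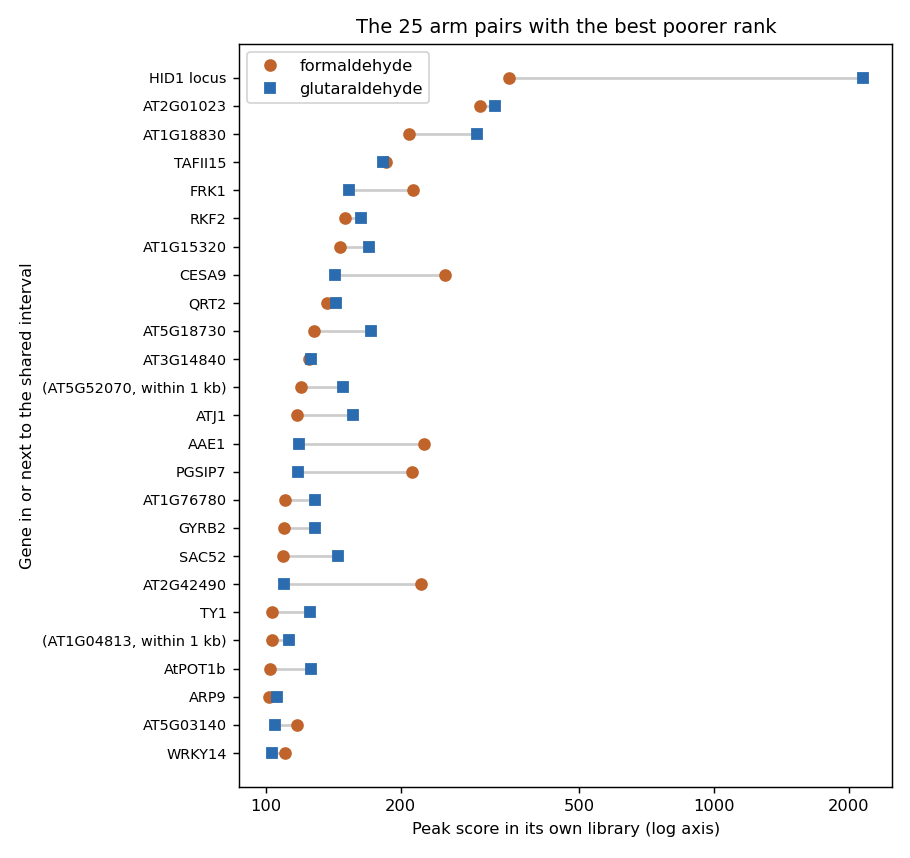
Scores of the 25 arm pairs with the best poorer rank, each row a pair named by a gene in it (or, in brackets, within 1 kb), with the formaldehyde score as a circle and the glutaraldehyde score as a square on a log axis. Scores rank peaks within their own list, so the gap between the symbols of a row is no measured difference. Apart from HID1 the scores lie between 102 and 325.

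Of the 25 best pairs 23 touched the body of a protein-coding gene, as did 253 of all 316 pairs. QRT2 encodes a polygalacturonase that separates pollen grains and had scores of 137 with formaldehyde and 144 with glutaraldehyde. AT3G14840, called LIK1 for its interaction with a chitin receptor kinase, had 125 and 126. AAE1, for an acyl activating enzyme, had 225 and 119. ATJ1, which encodes a DnaJ chaperone, had 117 and 157, but its overlap was 36 bp. SAC52, the gene of ribosomal protein L10, had 109.5 and 145 over 1239 bp, the second longest overlap of all.

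Among genes sorted below under DNA repair, telomeres and chromatin, the gyrase subunit gene GYRB2 had scores of 109.9 and 129. The telomere protection gene AtPOT1b had 102 and 126, and the actin-related protein gene ARP9 had 102 and 106. TY1, a plastid thioredoxin gene, had 103 and 125, but its overlap was 56 bp. The lectin receptor kinase gene AT5G03140 had 118 and 105, and the transcription factor gene WRKY14 had 111 and 103. AT5G18730 with AT5G18735, AT1G76780 and AT2G42490 completed the pairs in coding genes. The 2 without a coding body lay beside AT5G52070, AT5G52080 and AT5G52090 on chromosome 5, with scores of 119.9 and 149, and beside the noncoding entry AT1G04813 on chromosome 1, with 103 and 113.

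There were 26 pairs that reached 100 with both cross-linkers, namely these 25 and 1 in the pseudogene AT5G23955 with 117 and 102. A high score in only one library was more common, in 58 pairs for formaldehyde and 63 for glutaraldehyde, and 169 pairs (53.5%) were under 100 in both. SVL3, a gene of glycerophosphodiester phosphodiesterase-like proteins, had 335 with formaldehyde and 88.8 with glutaraldehyde. GTR2, which encodes a glucosinolate transporter, had 69.2 and 223. The second highest glutaraldehyde score of any pair, 360.2, lay between AT5G21950 and AT5G21960, and the formaldehyde score there was 77.4.

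Scores of peaks in pairs were close to those of other arm peaks. With formaldehyde the median was 74.5 (quartiles 60.7 and 103) against 70.7 (58.2 and 93.9), and with glutaraldehyde 76.9 (60.1 and 106) against 71.9 (59.1 and 95.9). Peaks in pairs were also wider, with medians of 890.0 against 819 bp and of 656 against 635 bp, and a wider peak meets an overlap more easily. Formaldehyde arm peaks were split by score into 4 classes of nearly equal size. From the lowest to the highest class, the share of peaks in pairs was 8.23%, 10.7%, 10.5% and 12.6%, while the median width went from 682 to 1049 bp. For glutaraldehyde the shares were 5.52%, 4.6%, 6.21% and 7.67%, and the median width went from 587 to 822 bp. Over the 316 pairs the rank correlation of the scores was 0.07, and 0.16 over the 129 pairs in which 50% or more of each peak overlapped. These are descriptions over regions that share 2 libraries.

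**Figure D3:**
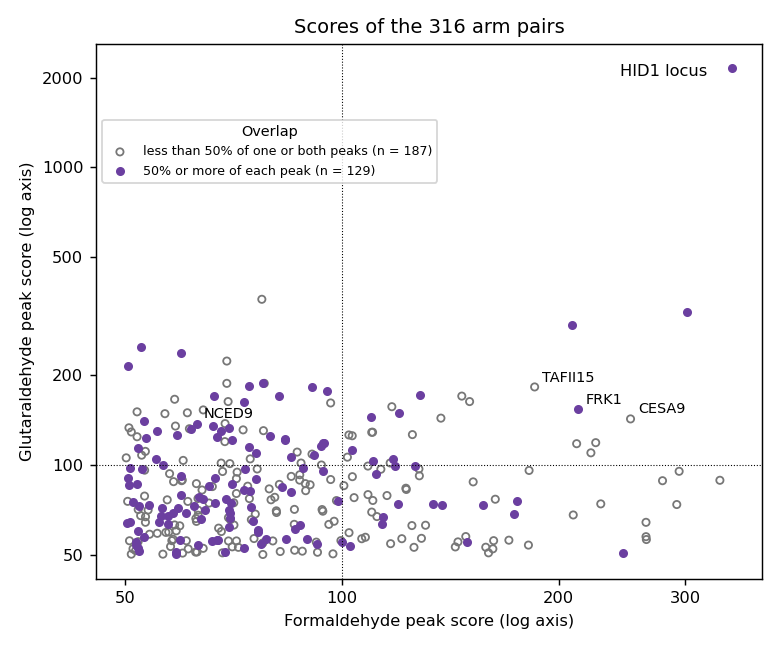
Formaldehyde score (horizontal, log axis) against glutaraldehyde score (vertical, log axis) of each of the 316 pairs, with dotted lines at 100. Filled points are the 129 pairs in which the overlap takes 50% or more of each peak. HID1 stands alone at 348 and 2149.6, most points lie under 100 on one or both axes, and the points follow no clear line.

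The overlaps were often partial. Their median length was 446 bp, with quartiles of 215 and 598 and a range from 6 to 1401 bp. At least 50% of each peak overlapped in 129 pairs (40.8%), the midpoints lay within 200 bp of each other in 91 (28.8%), and the overlap was under 100 bp in 43 (13.6%). A glutaraldehyde peak lay inside a formaldehyde peak in 54 pairs and the reverse held in 23. The longest overlap, 1401 bp, lay in CPK30, a calcium-dependent protein kinase gene, on chromosome 1 from 28081203 to 28082603, and took 94.2% of the formaldehyde and 94.0% of the glutaraldehyde peak. After it and SAC52 came the HID1 locus with 1162 bp, AT4G11800 with 1141 bp and the pair beside the ribosomal RNA entries with 1125 bp. Both stricter conditions, 100 or more in each list and 50% or more of each peak, were met by 10 pairs, which included HID1, AT1G18830, FRK1, SAC52, AT5G03140 and WRKY14.

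**Figure D4:**
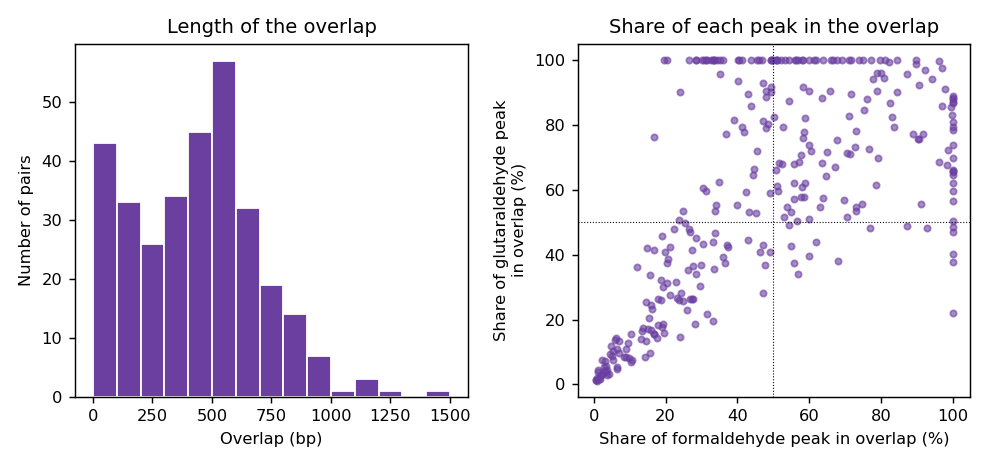
Left, number of pairs by length of the overlap in bins of 100 bp. Right, share of the glutaraldehyde peak against share of the formaldehyde peak that lies in the overlap, in percent, 1 point per pair, with dotted lines at 50. Short overlaps under 100 bp number 43, and 129 pairs lie in the upper right field.

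At the edge of the rule, the smallest overlaps were 6 bp in AT4G10490, 8 bp in ACA7 and 8 bp in the noncoding entry AT5G02835. The nearest peaks that did not meet stood 4 bp apart at WIH2, 10 bp apart at GSL12 and 11 bp apart at NHX2. In all, 34 formaldehyde arm peaks ended within 100 bp of a glutaraldehyde peak without overlap. Toward the centromeres the nearest pairs counted as arm lay 0.462 kb outside the interval of chromosome 5, across AT5G39970 and AT5G39980, and 7.63 kb outside that of chromosome 4. The latter reached into the body of ELP6, with the midpoint of the shared interval in the flank. The nearest pairs inside lay 21.1 kb from the edge on chromosome 1 and 22.5 kb from it on chromosome 4.

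By their midpoints, 241 of the 316 shared intervals (76.3%, 95% exact binomial interval 71.2 to 80.8) lay in the body of a protein-coding gene. The share was 81.5% of all formaldehyde arm peaks, 66.2% of all glutaraldehyde arm peaks and 65.6% of arm sequence. Flanks within 1 kb of a protein-coding gene held 39 intervals (12.3%, 8.93 to 16.5) against 8.4% and 19.9% of the peaks and 21.1% of the sequence. Pseudogene bodies held 17 (5.38%, 3.16 to 8.47) against 4.12% and 1.99% of the peaks and 2.03% of the sequence. Other intergenic sequence held 16 (5.06%, 2.92 to 8.09), against 145 of 2964 formaldehyde peaks, 536 of 5218 glutaraldehyde peaks and 9.96% of the sequence. Noncoding gene bodies held 3 (0.949%, 0.196 to 2.75) against 1.08% and 1.65% of the peaks and 1.35% of the sequence. Coding bodies took precedence, so the HID1 interval counts as coding through AT2G35750. By any contact instead of the midpoint, 10 pairs touched a noncoding body. In coding bodies and flanks the shared intervals thus stood between the values of the formaldehyde and the glutaraldehyde peaks that formed them.

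**Figure D5:**
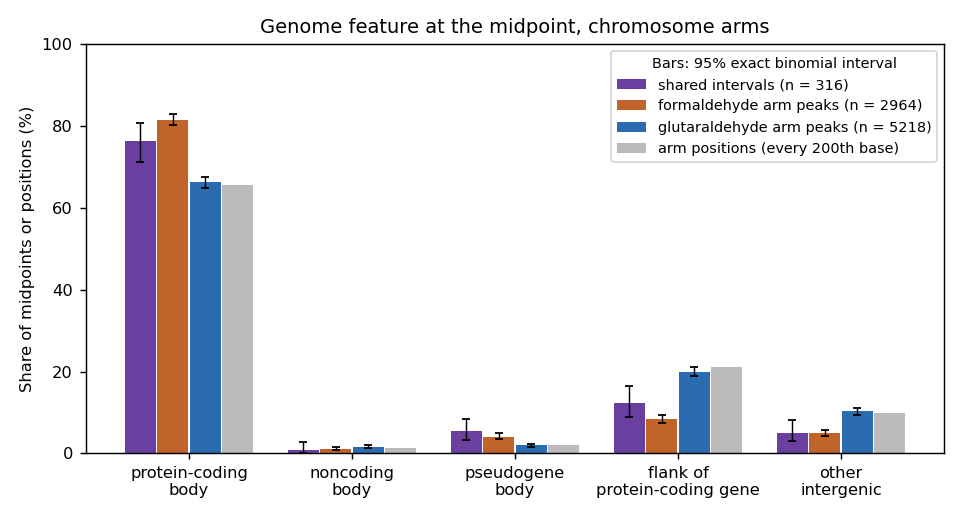
Share of midpoints (percent) in each of 5 genome features, for the shared intervals, for all arm peaks of each library and for every 200th base of the arms, with 95% exact binomial intervals. Coding gene bodies hold 76.3% of shared intervals, between 81.5% for formaldehyde and 66.2% for glutaraldehyde.

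Positions within coding genes were close to those of the formaldehyde peaks. The gene table used has no strand, so start and end cannot be told apart. Of 245 combinations of a midpoint and a gene, 134 (54.7%) fell in the inner 50% of the gene and 38 (15.5%) in the outer 20%, made of 10% at each end. An even spread along genes would give 50% and 20%. All formaldehyde arm midpoints gave 55.3% and 13.2%, and glutaraldehyde midpoints 47.2% and 20.8%. The genes that held a shared midpoint were long, with a median of 2819 bp against 2120 bp for all arm coding genes. Genes that held a formaldehyde or a glutaraldehyde midpoint had medians of 2864 and 2714 bp.

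The pairs touched few genes. A shared interval reached the body of 261 of the 24061 protein-coding genes of the arms (1.08%) and the body or 1 kb on either side of 421 (1.75%). A formaldehyde peak reached the body of 11.1% of these genes and a glutaraldehyde peak the body of 17.2%. Both did in 574 genes, and in 313 of them the peaks lay at separate places without a shared interval in the body. There were 5 genes with 2 pairs in the body, GN, ACA7, AT1G58050, AT1G72270 and AT2G29370. Only 14 pairs touched more than 1 coding gene body, 41 touched no gene body of any kind and 6 had no listed gene within 1 kb.

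Of the 261 genes, 111 (42.5%, 36.5 to 48.8) have a symbol of their own in the gene table, against 39.4% of all arm coding genes. Functions are given below for genes named there. The genes were sorted into 15 groups by words in their symbols and synonyms. These words were written after the touched genes had been seen, so a group's share above 1.08% is no result, and the counts only say where the genes fall. They count genes whose body a shared interval reached, also where the midpoint of the interval lay outside the gene. A gene can stand in several groups. The groups took in 84 of the 261 genes and 4120 of the 24061 arm coding genes. Another 143 of the 261 and 13893 of the 24061 have no symbol or descriptive synonym and could not be sorted. At least 1 gene was touched in 14 of the 15 groups. The exception was the F-box proteins with 0 of 39, a count of genes so named only.

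Protein kinases and receptor-like proteins found by these words numbered 12 of 553, among them RLP13, a receptor-like protein without a kinase part (88.9 with formaldehyde and 86.6 with glutaraldehyde). Besides FRK1, RKF2, AT3G14840, AT5G03140 and CPK30, this group held the mitogen-activated protein kinase genes MPK20 (94.4 with formaldehyde and 119 with glutaraldehyde) and MPK11 (67.4 and 61.4, over 53 bp). It also held MAPKKK17 (64.1 and 52.5), a kinase further up such cascades. PERK5 (144 and 53.1) belongs to a family of receptor kinases with an extensin-like part, and its overlap was 67 bp.

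Genes sorted under disease resistance by words in their names numbered 4 of 48. Whether each acts in resistance was not checked, and genes listed by locus tag alone could not enter. EDS1, a central regulator of immunity by intracellular receptors, had scores of 93.6 and 99.99 over 291 bp. ADR1-L3, named as a relative of the helper receptor ADR1, had 112 and 67.1. MLO14 (90.8 and 109) and MLO11 (92.2 and 54.4) belong to the family named after the barley mildew locus, of which the arms hold 13 genes by symbol. This family was singled out from the touched genes, so its share is no result.

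Transcription factors numbered 20 of 791. WOX11, a homeobox gene known for the founding of adventitious roots, had scores of 118 with formaldehyde and 99.0 with glutaraldehyde. HB-1 (96.4 and 89.4), also called RLT1, AT4G12050 (85.0 and 91.6), an AT-hook gene, and LBD42 (77.8 and 130.4) followed. NST1 (59.8 and 88.6, over 52 bp) and VND1 (68.7 and 51.0) are NAC genes that switch on wall thickening in fibres and vessels. The glutaraldehyde score of VND1 was close to the lowest of its list. No other gene with an NST or VND symbol stood among the 20. NST1 and VND1 were singled out from the touched genes and their families were not counted, so their joint presence is no result. HSL1, also named VAL2, encodes a B3 protein that silences seed maturation genes once seeds germinate, and had scores of 83.5 and 56.3 over 846 bp. SPL4, a flowering regulator and target of the microRNA miR156, had 70.0 and 65.5 over 31 bp, and the entry MIR156i lay 557 bp from that interval.

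Hormone genes numbered 10 of 373, and 3 of them carry names from a raised sensitivity to ABA. ABO1 encodes the largest subunit of Elongator, a complex that modifies transfer RNA and acts with RNA polymerase II, and had scores of 81.6 with formaldehyde and 169.9 with glutaraldehyde over 942 bp. ELP6, a further Elongator gene, had 67.9 and 101 over 556 bp. TIL1, also called ABO4, encodes the catalytic subunit of DNA polymerase epsilon and had 152 and 87.8. ABO3, a WRKY gene, had 55.1 and 105 over 666 bp.

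In ABA synthesis NCED9, whose enzyme cleaves carotenoids in the committed step, had scores of 62.8 and 138, and the overlap took 90.6% of the formaldehyde and 75.8% of the glutaraldehyde peak. Both gibberellin genes touched encode enzymes that inactivate the hormone. GA2OX6, a gibberellin oxidase gene, had 87.3 and 89.0, and the overlap took 33.1% and 19.4% of the peaks. GAMT1, a gibberellin methyltransferase gene, had 78.4 and 56.5 over 521 bp.

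On the auxin side IAA7 (79.4 and 125) and IAA10 (57.6 and 93.5) encode repressors of the auxin response, and ILR1 (66.5 and 74.3, over 998 bp) and ILL5 (159.8 and 50.7) encode hydrolases that free auxin from amino acid conjugates.

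Light signalling held 2 of 72 genes, PAT1 (79.7 and 76.4), which acts in phytochrome A signalling, and COL5 (58.7 and 51.2), a gene of the CONSTANS-like family. FHL, for the nuclear import of phytochrome A, lay 96 bp from a shared interval in AT5G02210 with scores of 73.0 and 82.3. No pair lay in PIF3 or within 1 kb of it.

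Cell wall and carbohydrate genes numbered 8 of 335, with PERK5, counted among the kinases too, taken in for the extensin in its name. Of 10 cellulose synthase genes of the CESA family, CESA9 and CESA10 were touched, CESA10 with scores of 53.0 with formaldehyde and 57.1 with glutaraldehyde. The share over all arm coding genes was 1.08%. The family was singled out from the touched genes, so its share is no result. PGSIP3, also called GUX2, adds glucuronic acid to xylan and had 76.2 and 97.0 over 52 bp. EXT12 (67.0 and 124) encodes an extensin, A/N-InvB (86.6 and 110.5) an invertase and BGAL7 (57.2 and 76.4, over 87 bp) a galactosidase.

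Of genes sorted by words in their names under DNA repair, telomeres and chromatin 8 of 217 were touched. DRM1, a methyltransferase gene of the family that sets new DNA methylation, had scores of 84.8 and 81.1 over 546 bp. DML2, of the demethylase family that removes it, had 73.1 and 52.8 over 586 bp. EME1B (121 and 56.6) encodes an endonuclease of recombination, RECQI1 (67.2 and 55.9) a helicase, and DRT101 (61.0 and 75.4) is named for tolerance of DNA damage.

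Transporters numbered 8 of 570. KT1, a potassium transporter gene, had 96.4 and 162, the sucrose symporter gene SUC1 had 93.8 and 70.8, and ABCC11 had 50.6 and 133. SIP1A (71.5 and 94.6) encodes a small channel protein and DIT2.1 (102 and 59.2) a dicarboxylate transporter. ACA7, a calcium pump gene, held 2 pairs in which different formaldehyde peaks, with scores of 162 and 58.0, met one glutaraldehyde peak of 55.7.

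RNA processing held 5 of 103 genes. CRR4 (91.5 and 108) encodes a pentatricopeptide protein of plastid RNA editing, RBP-DR1 (209 and 67.9) an RNA-binding protein and DRB2 (62.6 and 51.0) a binder of double-stranded RNA. Other groups held 2 of 319 genes for ubiquitin ligases and proteases, with MC5 (93.6 and 116) and SBT4.13 (56.4 and 99.7), 2 of 242 for photosynthesis and chloroplast, with TY1 and CRR4, 1 of 229 cytochrome P450 genes, CYP76C7 (97.1 and 50.3), and 1 of 87 ribosome and translation genes, SAC52.

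Genes named for embryos, seeds or germination numbered 8 of 415. Apart from TAFII15 and TIL1 they were FAC1 (81.1 and 69.2), which encodes an AMP deaminase, EMB1025 (56.0 and 67.5), EYE (71.3 and 55.6), NST1, AAT (52.5 and 67.6, over 10 bp) and GN. GN encodes a regulator of vesicle traffic that polarises auxin flow. It held 2 pairs, in which formaldehyde peaks of 53.3 and 50.7 met one glutaraldehyde peak of 64.2.

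Outside the groups, and named after their values had been seen, were 3 of 16 myosin genes. The share over all arm coding genes was 1.08%, and since the family was picked afterwards its share is no result. XIA had scores of 149 with formaldehyde and 55.3 with glutaraldehyde, XIB 56.7 and 149, and VIIIA 55.4 and 129.6. Myosins move cargo along actin filaments. VTE1 (69.6 and 133), of vitamin E synthesis, which protects seed lipids, and NADP-ME2 (129 and 56.7), a malic enzyme gene, were also touched.

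Noncoding genes and pseudogenes made up the rest. Shared intervals touched the bodies of 7 long noncoding RNA entries, 4 small nucleolar RNA entries, all at the HID1 locus, and 2 other noncoding entries. They touched 21 pseudogene entries in 23 pairs. The pseudogene AT5G07505 had scores of 279 with formaldehyde and 88.6 with glutaraldehyde. In the pseudogene AT3G14517 a formaldehyde peak of 87.3 met 2 glutaraldehyde peaks, of 92.7 and 63.0. In AT5G07215 one formaldehyde peak of 264 met 2 glutaraldehyde peaks, of 64.2 and 57.4. Among pseudogenes with a symbol were CYP51G2 (99.9 and 55.2) and PERK2 (52.1 and 52.7). No microRNA or transfer RNA gene was touched in its body, and 1 and 3 of these lay within 1 kb.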

How the data were processed

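For either probe library the authors deposited a list of peaks, called per sample, with positions and a score. This deposited score ranks peaks within a list, and the lowest was 50.0 in both. Tools named in the submitters' processing notes are Bowtie2 2.1.0 and MACS 1.4.2, with the build TAIR10. Nothing in the sources used here states the control for peak calling, how multiply mapped reads were handled, or whether seed batches differed between samples, and the depth is unknown.

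Peaks were paired at an overlap of 1 bp or more, with pericentromeric intervals as approximate positions. Starts were converted to count from 1. Genes came from the RefSeq table of TAIR10.1, whose nuclear coordinates were taken as those of TAIR10 from background knowledge. A gene was touched if the shared interval reached its body or 1 kb on either side, but in the functional groups only if it reached the body. An arm gene has its midpoint outside the intervals. In a midpoint with several gene kinds, coding came before noncoding and pseudogene. Chromosome lengths were taken as the highest end among peaks and genes. Pairing and classes were tested on simulated data with known answers. Python 3.11.15, pandas 2.3.3 and scipy 1.17.1 were used. Exons, strand and sequence were not used here.

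No test across genes or regions was run. The members, gene groups and search words were chosen with earlier results of these data known. Genes named are the 25 pairs with the best poorer rank (the larger of the 2 ranks), pairs at 100 or more in both lists, up to 5 genes per group, HID1 and touched genes of ABA, gibberellin and light pathways, peaks with 2 partners, pairs at the edges of the rule and the 5 longest overlaps. Further genes of the groups and all genes outside them were named after their values had been seen. Alternatives changed the overlap, the score minimum, the intervals and the flank.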

Additional observations from a re-analysis of the deposited data

How the results depend on the processing

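The number of pairs depends on the overlap and score required. With 50% of both peaks in the overlap it was 129, with midpoints at most 200 bp apart 91, and with both scores at 100 or more 26, and the coding genes touched numbered 182, 128 and 38, against 421. Without flanks they numbered 261. Moving each edge of the pericentromeric intervals by 0.5 Mb kept the numbers of pairs and genes touched within 1.5 times, the class shares within their intervals and the median scores within the quartiles. Group counts were not rerun there. Wider intervals gave 294 pairs and 395 genes, and narrower ones 341 pairs and 421 genes. Genes were counted among the arm genes of the unmoved intervals, so narrower intervals could add hardly any. The share of intervals in coding bodies was 70.3% with midpoints within 200 bp and 84.6% at a score of 100 or more. Pseudogene bodies held 3.1% under the 50% rule. Other intergenic sequence held 8.79% with midpoints within 200 bp. At a score of 100 or more noncoding bodies and flanks each held 3.85%, the median scores were 127 and 136, and 7 groups had a gene touched. With flanks left out, flanks held 0% by construction and other intergenic sequence 17.4%. With flanks of 500 bp the values were 8.86% and 8.54%, and with 2 kb other intergenic sequence held 2.22%. Counts of single groups, taken in gene bodies except in the 2 kb setting, moved by over 1.5 times in 33 of 48 cases. Of these, 13 came with the 50% rule, 14 with the score minimum and 6 with flanks of 2 kb. The stricter rules keep only a part of the pairs, so group counts can only fall there, and flanks can only raise them. Apart from these group counts and the flanks, whose definition sets the value, the cause was not tested.

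No paired analysis was possible because no result comes from a test and 1 of the 3 groups was analysed. Leaving out a library was not possible, since a pair needs both. Without replicates, read depth, mock or input, a single pair cannot be told apart from a coincidence of peaks.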
